A study of Mus musculus with 2 samples.

Results

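Gzmb-positive natural killer (NK) cells are described here as they were captured among CD45+ immune cells sorted from mouse tumours and sequenced as single cells with a 10x Genomics 5′ kit. They numbered 493 of 22044 cells in all, 172 of 12179 cells in the WT-labelled library and 321 of 9865 cells in the library labelled Ythdf2 cKO (conditional knockout). Both libraries came from C57BL/6 mice. The sources used here do not give the number of mice behind each library, their age, the tumour type or the promoter that drives the deletion, and the series is titled for the m6A reader YTHDF2 in tumour-associated macrophages. There was 1 library for each label, so label and library cannot be told apart. No difference below has a replicate check, and every interval is a 95% interval that covers counting error only.

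A cell was counted as a member by its own UMIs (unique molecular identifiers, each standing for 1 captured RNA molecule). It had at least 200 detected genes and at most 10% mitochondrial UMIs, at least 1 UMI of Ncr1 or Klrb1c, at least 3 of Nkg7 and at least 1 of Gzmb. It had no UMI of Cd3d, Cd3e, Cd3g or Csf1r, fewer than 5 UMIs of C1qa, C1qb and C1qc per 10000, and fewer than 2 of Sult2b1, Dhrs3 and Serpinb6b. Ncr1 encodes NKp46 and Klrb1c encodes NK1.1, the receptors by which NK cells are recognised in C57BL/6 mice, and Nkg7 encodes a protein of cytotoxic granules. These genes chose the cells and their levels are given only as a description. The files supply no cell type annotation.

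NK cells are innate lymphocytes that kill stressed, infected or transformed cells without prior sensitisation. They release granules whose perforin opens a path for granzymes, serine proteases of which granzyme B sets off apoptosis in the target. In mice, NK cells carry granzyme B and perforin RNA before they are activated, and cytokines, type I interferon among them, raise granzyme levels and killing. Interferons act through receptor-associated kinases and transcription factors that bind short repeated motifs near the start of their target genes.

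The label NK was checked against genes that the rule did not use. Eomes, which encodes a transcription factor that sets NK cells apart from other group 1 innate lymphoid cells, was at 306 CPM (UMIs of a gene per 1000000 UMIs, summed over the members) in the WT-labelled library and 323 in the cKO-labelled library. Tyrobp, an adaptor of NK receptors, had a UMI in 100% of the members of both libraries, and Klrd1, the CD94 subunit, in 84.9% and 96.9%. Of the T cell genes outside the rule, Cd8a was at 0 and 5.68 CPM, Cd4 at 0 and 1.14, and Cd5, Cd6 and Cd8b1 at 3.41 or less. The T cell receptor constant regions, which NK cells can also transcribe, were present and higher in the cKO-labelled members: Trbc1 at 529 and 673, Trbc2 at 198 and 298, Trac at 11.8 and 30.1 and Trdc at 57.7 and 89.8. The costimulatory receptor gene Cd28 was at 79.9 and 107, with a UMI in 19.2% and 31.5% of members. The part of T cells in the other values was not tested. Cd79a of B cells was at 5.92 and 0 CPM, and Siglech of plasmacytoid dendritic cells at 0 and 0.57. The group 1 innate lymphoid cell markers Itga1 (37.0 and 36.4 CPM) and Cd200r1 (1.48 and 1.14) were low.

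RNA of other cells was present at unequal levels. The 6 macrophage markers summed to 598 CPM in the members of the WT-labelled library and 118 in the cKO-labelled library, with Csf1r at 0 in both by the rule, and the 4 melanocytic markers Pmel, Dct, Tyrp1 and Mlana summed to 903 and 12.5. Most of the latter lay in 1 barcode of the WT-labelled library that held 52295 UMIs, 552 of them melanocytic, beside 3 UMIs of Ptprc, the gene of CD45. This barcode held 7.74% of all UMIs of that library's members, and without it the melanocytic markers summed to 93.1 CPM and the macrophage markers to 483. It is called the melanocytic barcode below, and values are given with and without it for the lists and genes it moved most. The part of foreign RNA in the other values was not tested. Ythdf2 itself was at 54.8 CPM (38.6 to 75.5) in the members labelled WT and 61.4 (50.4 to 74.1) in those labelled cKO. In cells of the same libraries with 2 or more Csf1r UMIs and no Cd3 it was at 67.5 and 398 CPM, so that Ythdf2 RNA was higher in the cKO-labelled library. The sources used here do not say which part of the gene is deleted, and 5′ counts need not cover it. The libraries are therefore named by their labels throughout.

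Members summed to 675481 UMIs in the WT-labelled library and 1759520 in the cKO-labelled library, with medians of 3259 and 4987 UMIs a cell. No member barcode was shared between the libraries, although 28 barcodes of cells that passed the quality limits were. Each step of the rule took a different share from each library. After the steps up to C1q, 723 and 1237 cells were left, and the limit on Sult2b1, Dhrs3 and Serpinb6b, by which the rule left out other NK-like cells, brought these to 400 and 455 gated NK cells.

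Gzmb-positive NK cells made up 1.41% (1.21 to 1.64) of cells labelled WT and 3.25% (2.91 to 3.62) of cells labelled cKO, a ratio of 2.30 (1.91 to 2.79). All gated NK cells differed less, at 3.28% and 4.61%. They were counted after the limit on Sult2b1, Dhrs3 and Serpinb6b, which brought 723 and 1237 cells to 400 and 455. Within the gate, 43% (38.1 to 48.0) of NK cells labelled WT and 70.5% (66.1 to 74.7) of those labelled cKO had a Gzmb UMI. Cells of the cKO-labelled library were deeper, so every gated NK cell was also thinned at random to 2541 UMIs, which left out 80 shallower cells labelled WT and 6 labelled cKO. At that depth 34.7% (29.5 to 40.2) and 61.7% (57.0 to 66.2) had a Gzmb UMI. The ratio of the shares was 1.78 at 1 or more UMIs, 3.39 at 5 or more and 5.58 at 10 or more. At least 5 Gzmb UMIs were found in 7.81% (5.12 to 11.3) and 26.5% (22.5 to 30.8), and at least 10 in 1.88% (0.691 to 4.04) and 10.5% (7.79 to 13.7). B cells, which should lack the gene, had a Gzmb UMI in 2.88% (3 of 104) and 5.23% (8 of 153) of cells at the same depth, which left out 198 of 302 and 15 of 168 B cells. As deposited, 1.32% and 5.36% of B cells had one, a ratio of 4.04 (1.13 to 17.97), with medians of 2308 and 3517 UMIs.

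**Figure D1:**
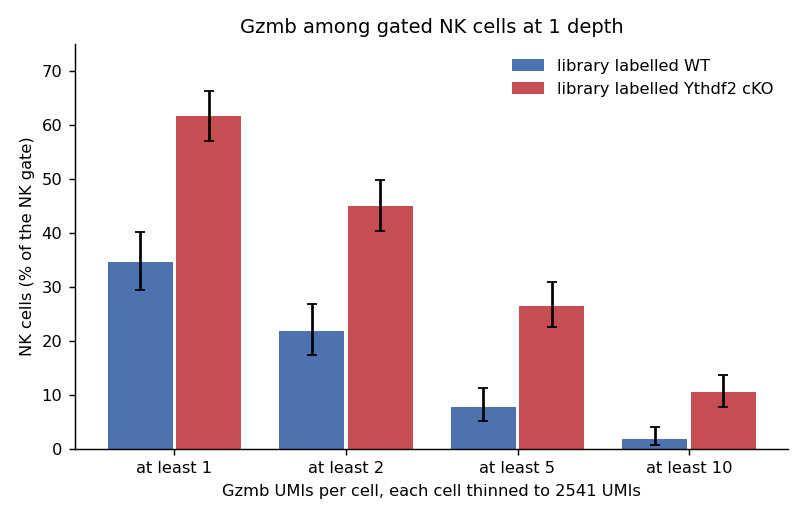
Share of gated NK cells (vertical axis, percent) with at least 1, 2, 5 or 10 Gzmb UMIs (horizontal axis) after each cell was thinned to 2541 UMIs, by library; bars are shares and error bars 95% Clopper-Pearson intervals over cells. The library labelled Ythdf2 cKO was higher at each amount, from 61.7% against 34.7% at 1 UMI to 10.5% against 1.88% at 10.

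Gzmb lies at chr14:56258838-56262260 on the minus strand of GRCm38. Among members, a cell held a median of 2 Gzmb UMIs (1 to 23) in the WT-labelled library and 5 (1 to 124) in the cKO-labelled library. Exactly 1 UMI was the evidence in 56 members (32.6%) and 69 members (21.5%), and 10 or more were seen in 19 (11.05%) and 105 (32.7%). Summed over members the level was 1019 CPM (944 to 1098) and 1887 CPM (1823 to 1952). These values used the gene that chose the cells and are a description.

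Gzma and Prf1 were graded with Gzmb on either side of the threshold, and Gzmc was not in the WT-labelled library. Gzma, the granzyme most abundant in these cells, was at 1785 CPM in cells labelled WT with no Gzmb UMI, 4028 in cells with exactly 1 and 7834 in cells with 2 or more. The matching values in the cKO-labelled library were 2463, 4821 and 8639. Prf1, perforin, was at 244, 438 and 960 CPM in the WT-labelled library and 253, 402 and 980 in the cKO-labelled library. For Gzma and Prf1 the libraries were thus nearer each other within a stratum than the strata were. Gzmc was at 542, 461 and 554 CPM in the WT-labelled library and 135, 204 and 937 in the cKO-labelled library. Of the members' Gzmc UMIs, 121 of 325 labelled WT and 729 of 1386 labelled cKO lay in 1 cell of each library. Whether Gzmc rose with Gzmb outside that cell was not tested. For the other threshold, cells with a Gzmb UMI but only 1 or 2 of Nkg7 (34 and 21 cells, outside) had Gzma at 5626 and 5165 CPM, and members with exactly 3 of Nkg7 (21 and 12 cells, inside) had 4079 and 6389.

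Gzmb-positive cells were next set beside the Gzmb-negative cells of the same gate within each library, with melanocytic barcodes (10 or more UMIs of the 4 melanocytic markers; 1 positive and 4 negative cells, all labelled WT) left out. Median depth was alike within a library, 3245 against 3406 UMIs and 4987 against 5284. Genes were compared where they reached 10 CPM on either side, and a gene is called higher or lower where CPM differed at least 1.5-fold after 1 CPM was added to both. In the WT-labelled library 8.53% of 8077 genes were higher and 14.4% lower in the positive cells, and in the cKO-labelled library 7.58% of 7912 were higher and 9.23% lower. Of 7262 genes compared in both libraries, 95 were higher in both and 191 lower in both. Cells of 1 library are not replicates, so these sizes carry no test.

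The genes higher in Gzmb-positive cells of both libraries were led by other effector genes. Cma1, a chymase, was at 64.2 CPM in positive and 8.04 in negative cells labelled WT, and at 52.3 and 7.62 in those labelled cKO. Serpinb9b, a serpin related to the granzyme B inhibitor, was at 54.6 and 10.3, then 79.0 and 16.5. Gzma was at 6510 and 1785 CPM, a ratio of 3.65 (3.44 to 3.87), and at 7862 and 2463, a ratio of 3.19 (3.04 to 3.35). Prf1 was at 778 and 244, a ratio of 3.20 (2.71 to 3.77), and at 862 and 253, a ratio of 3.41 (2.94 to 3.97). Thinned to 2460 UMIs, 67.9% of positive and 36.6% of negative cells labelled WT had a Prf1 UMI, and 76.7% and 37.9% of those labelled cKO, against 1.68% and 3.18% of B cells.

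The chemokine genes Ccl3, Ccl4 and Ccl5 followed the same order. Ccl5, whose product attracts T cells and dendritic cells, was at 6504 CPM in positive and 1820 in negative cells labelled WT, and at 6960 and 2692 in those labelled cKO. Ccl4 was at 1545 and 372, then 1296 and 410, and Ccl3 at 623 and 148, then 430 and 150. Ifng, interferon gamma, differed less, with ratios of 1.58 (1.25 to 2.003) and 1.91 (1.53 to 2.42). The chemokine genes Cxcl9 and Cxcl10 went the other way. Cxcl9 was at 6.42 CPM in positive and 10.3 in negative cells labelled WT, and at 14.2 and 104 in those labelled cKO. Cxcl10 was at 54.6 and 87.3, then 106 and 164. Xcl1, which attracts cross-presenting dendritic cells, was at 1335 and 1360 CPM in the WT-labelled library and 1273 and 1363 in the cKO-labelled library, so the positive cells did not stand above the negative ones.

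Genes of mature NK cells were mostly higher and genes of immature NK cells mostly lower in the Gzmb-positive cells. Of the 11 mature genes compared, 8 were higher and 1, Ly6c2, lower in the WT-labelled library (median log2 ratio 0.76 against -0.05 over all genes), and 7 were higher and 0 lower in the cKO-labelled library (0.91 against -0.02). Itgam, CD11b, was at 130 and 46.0 CPM, then 86.4 and 41.9. Klrg1, an inhibitory receptor of late NK cells, was at 25.7 and 5.74, then 27.3 and 5.08. Zeb2, a transcription factor of terminal maturation, was at 220 and 133, then 180 and 95.3. Of the 12 immature genes, 0 were higher and 8 lower in the WT-labelled library (median -0.63), with 0 and 7 in the cKO-labelled library (-0.75). Il7r, the interleukin 7 receptor, was at 17.7 and 81.6 CPM, then 14.8 and 62.2. Tcf7, the gene of TCF-1, was at 116 and 273, then 131 and 263, and at the thinned depth it had a UMI in 22.6% of positive and 47.4% of negative cells labelled WT and in 23.03% and 43.9% of those labelled cKO.

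Group 1 innate lymphoid and TGF-beta response genes were lower too, 9 of 14 in the WT-labelled library (1 higher, median -0.93) and 7 of 14 in the cKO-labelled library (1 higher, median -0.68). Itga1, CD49a, was at 38.5 CPM in positive and 97.7 in negative cells labelled WT and at 36.4 and 82.6 in those labelled cKO, and Krt83 was at 54.6 and 126, then 42.6 and 91.5. The gene of this list that was higher in both was Entpd1, the ectonucleotidase CD39, with 16 and 5 UMIs labelled WT, then 42 and 1. Among transcription factors Irf8 was higher in the positive cells, at 1375 and 681 CPM, then 1299 and 582, whereas Eomes (329 and 284, then 323 and 338) and Tbx21 (80.2 and 62.04, then 58.0 and 57.2) were within 1.5-fold. Il12rb2, a subunit of the interleukin 12 receptor, was at 89.9 and 41.4, then 102 and 38.1. Of 18 G2 and M phase genes, 1 was higher and 13 lower in positive cells labelled WT, with 0 and 9 of 12 in those labelled cKO. S phase genes did not share this, with 3 of 17 higher and 4 lower (median -0.30), then 3 and 1 of 14 (0.24). Over all genes compared, 8.53% were higher and 14.4% lower in the WT-labelled library, and 7.58% and 9.23% in the cKO-labelled library.

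**Figure D2:**
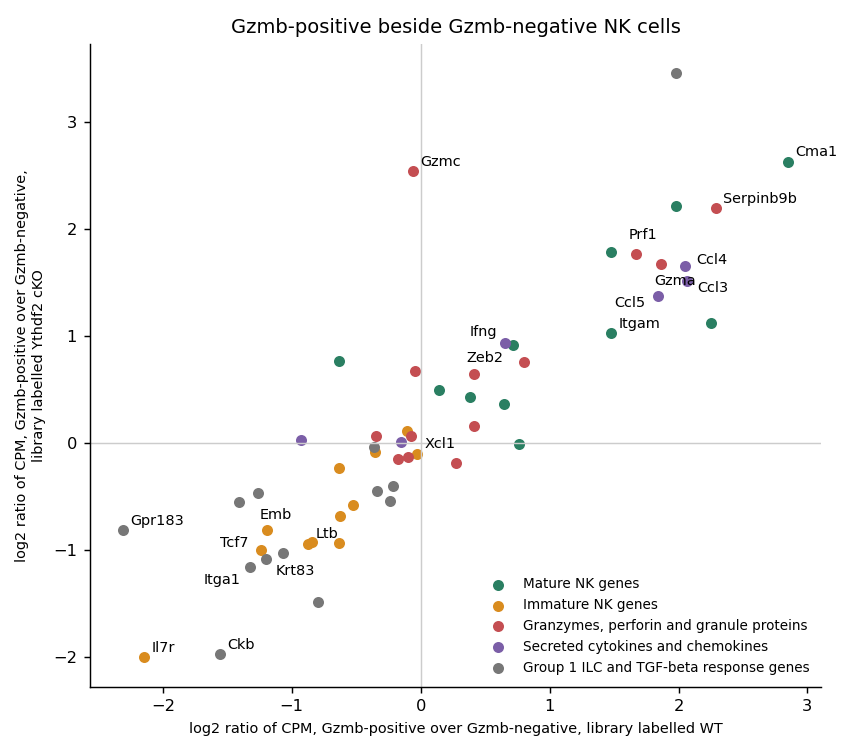
Genes of 5 lists plotted by their log2 ratio of CPM in Gzmb-positive over Gzmb-negative NK cells in the WT-labelled library (horizontal axis) and the library labelled Ythdf2 cKO (vertical axis); each point is a gene of at least 10 CPM on either side in both libraries, and Gzmb is not drawn. Ccl3, Ccl4, Ccl5 and granule and mature NK genes such as Prf1 (1.67 and 1.77) lie at the upper right, and Il7r (-2.15 and -2.003) lies at the lower left.

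Between the libraries, 8014 genes reached 10 CPM in the members of either. At the 1.5-fold mark 632 (7.89%) were higher and 1025 (12.8%) lower in the members labelled cKO, with a median log2 ratio of -0.05. Without the melanocytic barcode these became 657 (8.44%) higher and 765 (9.83%) lower of 7785 genes, with a median of -0.04. In Gzmb-negative NK cells, without melanocytic barcodes, 7.72% of 8150 genes were higher and 12.8% lower. In Gzmb-positive CD8 T cells (2 or more Cd3 UMIs, Cd8a and Gzmb each with a UMI, no Ncr1, Klrb1c or Csf1r; 156 and 1226 cells), 5.62% of 8082 were higher and 8.7% lower. The lists were read against these shares and were chosen with earlier results of these data known.

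The interferon lists stood farthest above 0. Of 27 type I interferon response genes compared, 22 were higher and 1 lower in the members labelled cKO, with a median log2 ratio of 1.05. Without the melanocytic barcode, 23 were higher and 0 lower, with a median of 1.02. The gene lower with the barcode was Ifitm3, of whose 134 UMIs labelled WT 80 lay in 1 cell, and its log2 ratio went from -1.34 to -0.15. Gzmb-negative NK cells had 9 of 27 higher and 0 lower with a median of 0.39, and Gzmb-positive CD8 T cells had 18 of 26 higher and 0 lower with a median of 0.87. These groups share the 2 libraries with the members, and the difference between them was not tested. Within the WT-labelled library, 2 of 27 were higher and 9 lower in Gzmb-positive than in Gzmb-negative NK cells (median -0.13). Within the cKO-labelled library 9 were higher and 1 lower (0.35). The shares over all genes in these comparisons were 8.53% higher and 14.4% lower, then 7.58% and 9.23%.

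Type I genes spanned sensors, effectors and regulators. Mx1, a dynamin-like antiviral GTPase, was at 8.88 CPM (3.26 to 19.3) in the members labelled WT and 47.7 (38.1 to 59.1) in those labelled cKO, a ratio of 5.37 (2.37 to 15.1), with 6 and 84 UMIs. Ifit3, which binds foreign RNA complexes, was at 7.40 (2.40 to 17.3) and 35.2 (27.0 to 45.2). Usp18, which removes ISG15 from proteins and dampens interferon signalling, was at 8.88 and 39.8. Irf7, the transcription factor that amplifies type I interferon production, was at 59.2 (42.3 to 80.6) and 128 (112 to 146), and Zbp1, a nucleic acid sensor, at 69.6 (51.1 to 92.5) and 148 (131 to 168). Trim30a was at 120 (95.2 to 149) and 249 (226 to 273). Isg15, a ubiquitin-like modifier, was at 20.7 (11.3 to 34.8) and 36.9 (28.5 to 47.1), and Irf9 had a log2 ratio of 0.03.

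Irf7 was higher to a like degree in Gzmb-negative NK cells, at 64.3 and 145 CPM, whereas Ifit3 (28.7 and 30.5) and Usp18 (33.3 and 33.0) were level there. Ifi44, an interferon-induced protein of uncertain role, was at 26.6 and 65.4 CPM in the members, 19.5 and 19.1 in Gzmb-negative NK cells and 4.13 and 4.83 in CD8 T cells. Ifi204, a DNA sensor family member, was at 28.1 and 105 CPM in the members, and 17.7 in the members labelled WT without the melanocytic barcode. None of these differences between cell groups was tested.

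Of 21 interferon gamma response genes, 13 were higher and 0 lower, with a median of 0.92, and without the melanocytic barcode 11 were higher and 0 lower, with a median of 0.85. Gbp2, a guanylate binding protein, was at 20.7 (11.3 to 34.8) and 51.7 (41.6 to 63.5). Tgtp2 had no UMI in 172 cells labelled WT and 18 UMIs labelled cKO. Set against a floor of 3 UMIs for the WT-labelled members, this was 2.30-fold higher, a value that leaves out counting error. Irf1, which is induced early by interferon gamma, was within 1.5-fold at 207 and 280 CPM. Gzmb-negative NK cells had 10 of 22 higher and 1 lower (median 0.50), and Gzmb-positive CD8 T cells 11 of 22 higher and 0 lower (0.65). Guanylate binding proteins, Ifit, Oas and immunity-related GTPase genes come in near-identical copies among which reads can be split, so single members are uncertain.

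At 1 depth the medians of the type I list did not differ, while the upper ends did. With members thinned to 2460 UMIs (137 and 317 cells, with 35 and 4 shallower ones left out), the list summed to a median of 2 UMIs a cell in both libraries and a mean of 2.16 and 3.77. The upper quartile was 3 and 5 UMIs, and the highest cell had 10 and 37. At least 5 UMIs were seen in 10.2% (5.70 to 16.6) of members labelled WT and 25.6% (20.8 to 30.7) of those labelled cKO. Gzmb-negative NK cells had 11.9% (7.67 to 17.3) and 15.9% (10.1 to 23.3), and B cells 11.8% (6.58 to 18.95) and 8.28% (4.48 to 13.7), with overlapping intervals in each. The interferon gamma list had medians of 6 and 8 UMIs a cell in the members, 4 and 5 in Gzmb-negative NK cells and 2 and 4 in B cells. At least 5 of its UMIs were seen in 73.7% (65.5 to 80.9) and 78.2% (73.3 to 82.7) of members, with overlapping intervals, and in 21.0% (14.1 to 29.4) and 36.9% (29.4 to 45.0) of B cells.

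**Figure D3:**
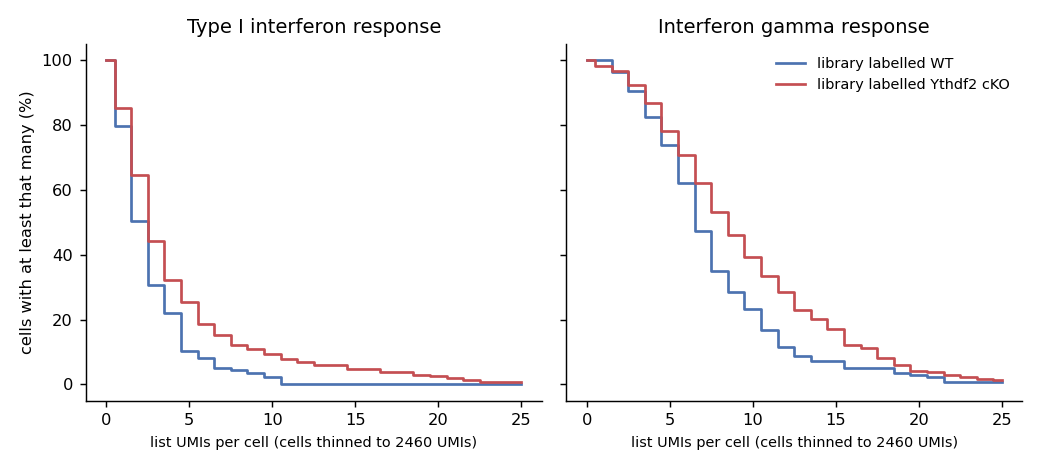
Share of Gzmb-positive NK cells (vertical axis, percent) with at least the number of list UMIs on the horizontal axis, after thinning to 2460 UMIs, for the type I interferon list (left) and the interferon gamma list (right); lines are the 2 libraries and the last step pools 25 or more. The curve of the library labelled Ythdf2 cKO lies above the other for the type I list at each number of UMIs, with 25.6% against 10.2% at 5.

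Among the 14 genes with the largest ratios upward, chosen by a rule on level and on RNA of other cells, 5 were on the interferon lists and 14 stayed past 1.5-fold without the melanocytic barcode. Those on the lists were Irgm1 (22.2 and 56.3 CPM), Ifi44, Gbp5 (22.2 and 52.9), Igtp (26.6 and 62.5) and Phf11b (45.9 and 99.5). Herc6, an ISG15 ligase, was at 19.2 and 56.8, Parp9 at 29.6 and 69.3, Casp4, an inflammatory caspase, at 26.6 and 67.1, and Rnf213 at 87.3 and 195. In Gzmb-negative NK cells, Herc6 was at 50.6 and 38.1 CPM and Parp9 at 51.7 and 43.2. Casp4 was at 34.5 and 64.8 there, and Rnf213 at 114 and 119. The difference between these cell groups was not tested. Cd69, an early activation marker that also keeps lymphocytes in tissue, was at 81.4 (61.3 to 106) and 177 (158 to 198), with 159 and 155 in Gzmb-negative NK cells. Sf3b4, a splicing factor, was at 28.1 and 67.6, and AY036118, which overlaps a ribosomal RNA repeat, at 934 and 2262. Hspa1b, a heat shock gene, was at 31.1 and 147 CPM but in only 10 and 21 cells, with 53 of 259 UMIs labelled cKO in 1 cell. Its near-identical copy Hspa1a was at 69.6 and 147. Of the Hspa1a UMIs, 16 of 47 labelled WT and 133 of 259 labelled cKO lay in 1 cell of each library. Without that cell's UMIs the levels were 45.9 and 71.6.

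Of the 14 genes, 11 had a promoter window in the RefSeq table (GRCm38.p6, 250 bases before to 50 after the start), and 4 of these windows held GAAA followed by any 2 bases and GAAA again, the core of the interferon-stimulated response element (ISRE) bound by interferon-activated factors. Both strands were searched for it and for TTCNNNGAA, a gamma-activated site motif that is its own reverse complement. The sequence before the start of those 4 genes is shown because they are the named genes that carry the motif. Bases run 5′ to 3′ toward the start on the gene's own strand, and capitals mark matches to either motif, the ISRE core on the other strand reading TTTC, 2 bases and TTTC. Overlapping matches run together.
Irgm1, GRCm38.p6 chr11:48871421-48871500, minus strand: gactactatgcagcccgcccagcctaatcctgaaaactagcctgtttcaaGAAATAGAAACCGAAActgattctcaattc
Igtp, GRCm38.p6 chr11:58199476-58199555, plus strand: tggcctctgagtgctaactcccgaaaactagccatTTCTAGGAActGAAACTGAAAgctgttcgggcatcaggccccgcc
Phf11b, GRCm38.p6 chr14:59341331-59341410, minus strand: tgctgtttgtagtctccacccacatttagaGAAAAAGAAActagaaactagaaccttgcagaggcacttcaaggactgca
Gbp5, GRCm38.p6 chr3:142496684-142496933, plus strand: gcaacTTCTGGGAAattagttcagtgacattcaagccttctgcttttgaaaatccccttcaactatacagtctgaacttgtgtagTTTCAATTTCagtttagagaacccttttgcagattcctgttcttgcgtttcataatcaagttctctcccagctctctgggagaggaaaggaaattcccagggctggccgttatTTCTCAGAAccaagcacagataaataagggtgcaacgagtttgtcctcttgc

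The ISRE core matches began 30 and 24 bases before the start of Irgm1, 34 before that of Igtp, 50 before that of Phf11b and 165 before that of Gbp5. TTCNNNGAA began 45 bases before the start of Igtp and 245 and 52 before that of Gbp5. Of all 32851 promoter windows listed, 3.44% held the ISRE core and 8.30% held TTCNNNGAA. Counted by gene, the ISRE core was in 4.18% of the 6358 genes compared in the members that had a window, in 14 of 23 type I genes, in 9 of 14 interferon gamma genes and in 0 of the 9 named lower genes with a window. TTCNNNGAA was in 8.23% of the compared genes, 5 of 23 type I genes and 8 of 14 interferon gamma genes. A match is a description of these letters in this window only.

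MHC class I and antigen processing genes, which present peptides and engage inhibitory NK receptors, were mostly within 1.5-fold. Of 18 compared, 4 were higher and 0 lower (median 0.34), and 1 was higher without the melanocytic barcode (0.24). The shares over all genes were 7.89% higher and 12.8% lower, and 8.44% and 9.83% without the barcode. Psmb8, an immunoproteasome subunit, was at 358 and 569 CPM, Tapbp at 210 and 331, H2-T23 at 253 and 397, and the classical H2-K1 at 2924 and 3375.

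Gzma and Prf1 were within 1.5-fold between the libraries. Of 16 granule genes compared, 6 were higher and 1 lower with a median of 0.24, and without the melanocytic barcode 4 were higher and 0 lower with a median of 0.14. Gzmb chose the cells and is one of those counted higher. Of all genes compared, 7.89% were higher and 12.8% lower, and 8.44% and 9.83% without the barcode. Gzma, at chr13:113093825-113100981 of GRCm38, was at 6025 CPM (5842 to 6213) and 7862 (7731 to 7994), a ratio of 1.30 (1.26 to 1.35), and without the barcode the level labelled WT was 6510. Prf1 was at 718 (656 to 785) and 862 (819 to 907), a ratio of 1.20 (1.08 to 1.33). With at least 3 Gzmb UMIs required, the log2 ratios of 0.38 for Gzma and 0.26 for Prf1 became -0.026 and -0.12. At 1 depth the share of members with a UMI had a ratio of 1.02 (0.823 to 1.27) for Gzma and 1.13 (0.886 to 1.45) for Prf1. As deposited, 158 of 172 and 302 of 321 members had a Gzma UMI. Its share was thus near the ceiling and cannot show whether its level differed. Lamp1, a granule membrane protein, was at 138 and 79.0 and was the gene counted lower, but its log2 ratio of -0.79 became -0.52 without the barcode.

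Granzymes C, F and G lie beside Gzmb on chromosome 14 and are so alike that reads can be split among them. Gzmc was at 481 and 788 CPM, but 729 of its 1386 UMIs labelled cKO lay in 1 cell, as did 121 of 325 labelled WT. Gzmf had 0 UMIs in the members labelled WT and 38 in those labelled cKO, and Gzmg had 0 and 33. Against a floor of 3 UMIs for the WT-labelled members these were 4.86-fold and 4.22-fold higher, values that leave out counting error. The Gzmf UMIs were spread over 33 cells with at most 3 in any. Gzmb-negative NK cells had Gzmf at 0 and 22.9 CPM, and in CD8 T cells it ran the other way, at 115 and 16.3 CPM.

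Of the 7 secreted factor genes compared, 6 were within 1.5-fold, 1 was higher and 0 were lower (median -0.001). Of all genes compared, 7.89% were higher and 12.8% lower. Ifng was at 231 CPM (196 to 270) and 231 (209 to 254), and Xcl1 at 1235 and 1273. Ccl3 was at 585 (529 to 645) and 430 (400 to 461), and Ccl4 at 1578 and 1296, both within 1.5-fold, and Ccl5 was at 6036 and 6960, a ratio of 1.15 (1.11 to 1.195). Flt3l, the dendritic cell growth factor, was at 29.6 (18.1 to 45.7) and 55.7 (45.2 to 67.9) and was the only 1 of 7 compared to pass 1.5-fold, with 62.04 and 54.6 in Gzmb-negative NK cells. In CD8 T cells Ifng was at 383 and 658 CPM and Ccl5 at 3953 and 10204.

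Ly49 receptors, many of which read MHC class I on other cells, differed most of any list member. These genes are close paralogues in a cluster on chromosome 6, so their counts are uncertain one by one. Klra8, the gene of Ly49H, had 309 UMIs in 77 members labelled WT (457 CPM) and 2 UMIs labelled cKO (1.14 CPM), a ratio of 0.00248 (0.0003 to 0.00905). Klra4 was at 601 (544 to 662) and 23.9 (17.2 to 32.3), and Klra9 at 238 and 50.6. Klra3 was the reverse, at 111 (87.3 to 139) and 375 (347 to 405), and Klra7 was level at 303 and 319. Gzmb-negative NK cells followed the same directions for Klra8 (448 and 0 CPM), Klra4 (422 and 15.2) and Klra3 (59.7 and 343). Klra7 was at 321 and 187 there, and Klra5 at 8.04 and 0, against 3 and 34 Klra5 UMIs in the members. Of 7 Ly49 genes compared in the members, 2 were higher and 4 lower (median -0.61), beside 7.89% and 12.8% of all genes. In Gzmb-negative cells 1 of 6 was higher and 5 lower (-1.81), beside 7.72% and 12.8%.

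**Figure D4:**
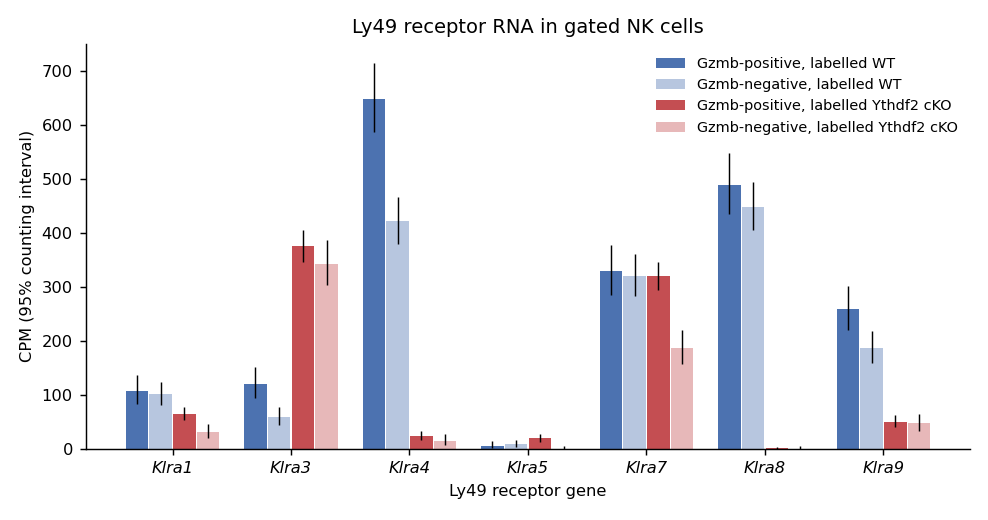
Level of 7 Ly49 receptor genes (horizontal axis) in CPM (vertical axis) in Gzmb-positive and Gzmb-negative NK cells of both libraries, melanocytic barcodes left out; bars are levels over summed UMIs and error bars 95% Poisson intervals. Klra8 and Klra4 were near 0 in both groups of the library labelled Ythdf2 cKO, at 1.14 and 23.9 CPM in its Gzmb-positive cells, and Klra3 was higher there.

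Other NK receptors were close. The counts below stand beside 7.89% higher and 12.8% lower over all genes, and 8.44% and 9.83% without the melanocytic barcode. Of 19 activating receptor and adaptor genes, 1 was higher and 1 lower (median -0.02), and without the melanocytic barcode 0 and 1 (-0.14). Klrk1, NKG2D, was at 558 and 650 CPM, and Klrc2, NKG2C, the gene counted lower, at 212 and 131. Of 13 inhibitory receptor genes, 1 was higher and 0 lower (0.14), and without the barcode 1 and 1 (0.052), and Klre1 was at 601 and 427, a log2 ratio of -0.49 that became -0.61 without the melanocytic barcode. Styk1, a kinase-like membrane protein of NK cells, was at 104 (80.8 to 131) and 50.01 (40.1 to 61.6) and was among the 14 largest ratios downward.

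Cytokine receptor genes were higher in 2 and lower in 0 of 19 (median 0.14), and without the melanocytic barcode in 1 and 0 (0.041). Il2rb, the shared interleukin 2 and 15 receptor chain, was at 1424 and 1527 CPM. Signalling and feedback genes were higher in 3 and lower in 2 of 20 (0.20). The shares over all genes compared were 7.89% higher and 12.8% lower, and 8.44% and 9.83% without the barcode. The higher signalling genes included Jak3, a kinase of cytokine receptors (29.6 and 59.1 CPM). The lower were Cish, a feedback inhibitor of interleukin 15 signalling, at 88.8 (67.8 to 114) and 46.6 (37.1 to 57.8), and Stat5a (42.9 and 27.3). Cish was also lower in Gzmb-negative NK cells, at 108 and 44.5.

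Maturation genes did not separate the libraries as they separated positive from negative cells. Transcription factors were within 1.5-fold in 22 of 22 (median 0.11), with Eomes at 306 and 323 CPM and Tbx21 at 74.0 and 58.0. Mature NK genes were within it in 11 of 11 (-0.17) and immature genes in 12 of 12 (0.30). Without the melanocytic barcode 1 mature gene, Itga4, was lower (log2 ratio -0.65). Homing and residency genes had 1 of 17 higher, Cd69, and 0 lower (0.19). Group 1 innate lymphoid and TGF-beta response genes had 3 of 15 higher and 3 lower (-0.01), granule release genes 1 and 0 of 16 (-0.02), death ligands 1 and 0 of 5 (0.25), and activation genes 3 and 1 of 15 (0.17), with Myc at 20.7 and 47.7 CPM. Nutrient uptake genes had 3 of 13 higher and 2 lower (0.05), and without the barcode 2 and 0 (0.26). Immediate early genes had 2 and 1 of 21 (0.02), and the m6A machinery 0 and 1 of 14 (0.04), the lower gene being Mettl14 with 13 and 14 UMIs. Beside these counts, 7.89% of all genes compared were higher and 12.8% lower.

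Cell cycle and glycolysis genes were lower in the members labelled cKO, and few cells labelled WT held much of their UMIs. Of 16 G2 and M phase genes, 1 was higher and 13 lower (median -2.27), and without the melanocytic barcode 1 and 9 of 12 (-2.21). Mki67 was at 41.5 and 9.09 CPM. The 5 members labelled WT with the most held 47.3% of that library's UMIs of this list, against 10.6% in the cKO-labelled library. Cells with 2 or more UMIs over Mki67, Top2a, Birc5, Cdk1 and Ccnb2 were 5 of 172 (2.91%, 0.95 to 6.65) and 8 of 321 (2.49%, 1.08 to 4.85). These cells were chosen by genes of the list, and without them 5 of its genes reached 10 CPM, with a median of -0.04. S phase genes had 3 of 16 higher and 2 lower (-0.17). Of 19 glycolysis and hypoxia genes, 1 was higher and 9 lower (-0.57), and without the melanocytic barcode 2 were higher and 0 lower (0.05). That barcode held 655 of the 1044 Gapdh UMIs labelled WT and 198 of the 305 of Pgk1, and without it Gapdh was at 624 against 718 CPM. Oxidative phosphorylation genes were lower in 2 and higher in 0 of 20 (-0.23), and in none without the barcode (-0.10). Beside these counts, 7.89% of all genes were higher and 12.8% lower, and 8.44% and 9.83% without the barcode.

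The 14 largest ratios downward held 3 Ly49 genes, Klra8, Klra4 and Klra9. In 5 of the 14 (Phlda1, Csrp1, Vdac1, Gapdh and Ddit3) over 50% of the UMIs labelled WT lay in 1 cell, and 8 of the 14 stayed past 1.5-fold without the melanocytic barcode. Besides the Ly49 genes and Styk1, those that stayed included Cyb5r4 at 72.5 and 36.9 CPM, Stmn1, a microtubule regulator of dividing cells, at 87.3 and 42.1, and Scd2, a fatty acid desaturase, at 84.4 and 40.9.

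**Figure D5:**
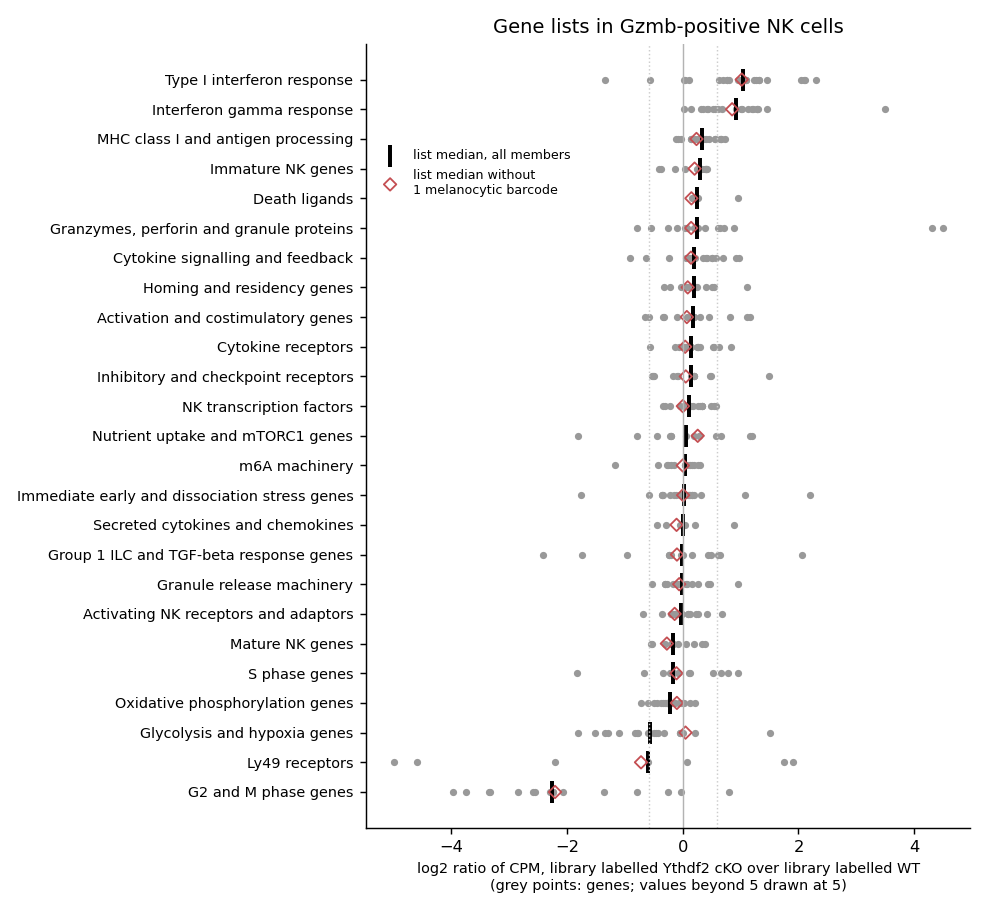
Log2 ratio of CPM (horizontal axis; cKO-labelled over WT-labelled library) of each compared gene (grey points) in the 25 gene lists (vertical axis), with list medians over all members (bars) and without the melanocytic barcode (diamonds); dotted lines mark 1.5-fold. The interferon lists have the highest medians (1.05 and 0.92), and the glycolysis median moves from -0.57 to 0.05 without the barcode.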

How the data were processed

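Per the submitters' processing notes, the authors used Cell Ranger 5.0.1 and Seurat 4.0.4 with mm10. The matrix headers name cellranger 5.0.0. The deposited files hold raw UMI counts of 31053 genes per barcode and no annotation. UMIs were summed per library over member cells and scaled to CPM. Log2 ratios used a pseudocount of 1 CPM, and 1.5-fold over genes of at least 10 CPM in either library was the mark. Intervals are exact Poisson, conditional binomial or Clopper-Pearson. Thinning drew UMIs without replacement. No doublet caller was applied in the main analysis, and Scrublet (scanpy 1.11.5) was an alternative. Symbols and coordinates came from the files and GENCODE vM21. Named genes were the 14 largest ratios per side that reached 50 CPM in either library and 100 UMIs over both, without mitochondrial, ribosomal protein, haemoglobin, antigen receptor, unnamed or sex-linked genes and genes under 0.2 of their level in another gated class, plus list members as examples. The members and lists were chosen with earlier results of these data known. The gates of the other cell classes, the melanocytic limit and the lists treated as main results were set after the values were seen. Positive and negative cells were compared by CPM, with shares at 1 thinned depth. Alternatives changed the cell filters, the gate, depth, weighting, scaling, pseudocount and low-value filter. Of the list entries, 3 matched no gene in the files. Scripts were tested on simulated data in Python 3.11.15. Some genes compared are not reported here by name.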

Additional observations from a re-analysis of the deposited data

How the results depend on the processing

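Leaving out the melanocytic barcodes was an alternative chosen after seeing the data. No paired analysis was possible because there was 1 library for each label, and for that reason no library could be left out. The count of higher genes went from 632 to 1045 when cells were thinned before the rule, 975 when both receptors were required, 1114 at 3 or more Gzmb UMIs, 287 with a pseudocount of 10 CPM, 2703 with no filter and 119 with a 50 CPM filter. The count of lower genes went from 1025 to 555, 2794 and 190 under the last 3. The log2 ratio of the Gzmb-positive share of NK cells went from 0.71 to 1.28 at 3 or more Gzmb UMIs. That of the share of all cells went from 1.20 to 1.55 with no UMI of other lineages, 1.61 when thinned, 1.57 at 6 or more Nkg7 UMIs and 1.77 at 3 or more Gzmb UMIs.

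In the next sentences the settings are, in order, Scrublet, no UMI of other lineages, cells above percentile 95 of UMIs out (the cap), thinning before the rule, both receptors, 6 Nkg7 UMIs, 3 Gzmb UMIs, cycling cells out, melanocytic barcodes out, and cells weighted equally. Glycolysis medians (-0.57) were 0.082, -0.054, -0.030, -0.073, -0.18, 0.14, 0.040, 0.070, 0.047 and -0.027, with -0.50 under median-of-ratios scaling and -0.68 with a 50 CPM filter. Granule medians (0.24) were 0.16, 0.14, 0.092, 0.14, 0.16, 0.19, -0.026, 0.15, 0.14 and 0.15, with 0.30 and 0.20 under the last 2. Ddit3 (-0.96) was 0.24, 0.44, 0.13, 0.43, 0.034, 0.31, 0.44, 0.18, 0.15 and 0.16. Gapdh (-1.10) was 0.23, 0.11, 0.10, 0.066, 0.048, 0.18, 0.11, 0.24 and 0.20 under the first 9.

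G2 and M medians (-2.27) were -1.72 with Scrublet, -2.05 with no UMI of other lineages, 0.072 with the cap, -1.30 thinned, -1.43 with both receptors, -0.018 at 3 Gzmb UMIs, -0.041 without cycling cells, -0.83 weighted equally, -1.03 with a pseudocount of 10 CPM and -0.14 with a 50 CPM filter. Interferon gamma medians (0.92) were 0.69 with Scrublet, 0.72 capped, 0.57 thinned, 0.76 with both receptors, 0.71 at 6 Nkg7 UMIs, 0.60 at 3 Gzmb UMIs and without cycling cells, 0.67 weighted equally, 0.65 with a pseudocount of 10 CPM, and 0.64 with no filter and with a 50 CPM filter. MHC class I medians (0.34) were 0.22 with Scrublet, 0.20 with no UMI of other lineages, 0.25 capped and thinned, 0.26 with both receptors, 0.22 at 6 Nkg7 UMIs, 0.25 without cycling cells, 0.24 without melanocytic barcodes and weighted equally, and 0.40 under median-of-ratios scaling. Type I medians (1.05) were 0.64 thinned, 0.85 with both receptors and 0.83 with a pseudocount of 10 CPM. Phlda1 (-1.31) was 0.20 with Scrublet, 0.30 capped, 0.22 thinned, 0.28 with both receptors, 0.37 at 3 Gzmb UMIs and without cycling cells, 0.20 without melanocytic barcodes and 0.15 weighted equally. Csrp1 was 0.065 with no UMI of other lineages, Gzmc -0.79 capped and -1.30 thinned, Scd2 0.26 thinned, Stmn1 0.12 at 3 Gzmb UMIs, and Zfand5 0.16 thinned and 0.00578 at 3 Gzmb UMIs. Except where a setting's own construction gives it, the cause was not tested. Of all alternatives, 655 values stayed within the counting interval of the main value (for counts of genes, within 1.5 times). Another 275 were classed as moved by more and 35 as reversed. Values classed as moved also crossed 0, such as the glycolysis median at 0.14 and the granule median at -0.026. The 35 therefore do not count every change of sign. The 172 and 321 cells limit low genes, as the intervals show.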

Other observations

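Rpl29, a ribosomal protein gene outside the lists, was at 1088 CPM in the Gzmb-positive NK cells labelled WT and 137 in those labelled cKO. It was at 1212 and 146 CPM in Gzmb-negative NK cells and at 1385 and 166 in Gzmb-positive CD8 T cells, and the difference between these groups was not tested. Gm42418, a gene model that overlaps a ribosomal RNA repeat, was at 24264 and 45379 CPM in the members, and Lars2, mitochondrial leucyl-tRNA synthetase, at 561 and 1081.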
